A study of Rattus norvegicus with 18 samples.

Results

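Genes that encode the machinery of mitosis were followed on rat microarrays of oligodendrocyte progenitors (OLPs), the dividing cells that give rise to the myelin-forming cells of the brain. The set held 46 gene symbols for the kinetochore and centromere, the spindle checkpoint, mitotic kinases, the chromosomal passenger complex, spindle assembly, cytokinesis, control of anaphase and condensin; kinesins and cyclins were left out. A probe counted as a member when the array annotation gave it one of these symbols. Of the 46 symbols, 33 had a probe, 1 each, among 22523 probes on the array. Of these 33 genes, 32 were measured, and Cenpa, the histone variant that marks centromeres, was not well above background on any of the 18 arrays. The 13 symbols that no probe carried were Anln, Birc5, Cenpe, Ckap2, Espl1, Ncapg, Ncaph, Nek2, Pttg1, Smc4, Spc24, Top2a and Zwilch. In the annotation used, 8730 probes had no symbol, so a missing symbol does not mean a missing probe. The study itself lists Anln and Spc24 (as Spbc24) from these arrays. Mki67 was not analysed here.

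All cells came from newborn Sprague-Dawley rats and were grown with mitogens, whose removal starts differentiation. The 6 groups of 3 libraries were cells at day 0, controls at day 1 and day 2 of differentiation, and cells given PD169316, an inhibitor of the α and β forms of the kinase p38, at day 1, day 2 and day 4. According to the methods the controls received DMSO, the vehicle. There was no control group at day 4 among the samples. By the legends of the PCR assays, exposure to PD169316 lasted as long as differentiation at each of the 3 times, whereas the labels' treatment text names only the 2 shorter exposures. Nothing in the labels says that the 3 libraries of a group came from separate cultures, so p-values measure the spread between these libraries, which may be technical. Each value is a log2 normalized intensity, and a difference in intensity between probes is not read as a difference in RNA amount. These are bulk RNA samples, in which fewer dividing cells and less mitotic RNA per cell cannot be told apart.

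As a cell enters mitosis its chromosomes condense, and each pair of sister chromatids is held by microtubules at the kinetochores. A checkpoint delays separation until every kinetochore is attached, after which the anaphase-promoting complex marks its targets for destruction and cytokinesis divides the cell. The transcripts of many of these genes accumulate together in the G2 and M phases of the cell cycle and are low in resting cells. OLPs divide in response to growth factors and leave the cell cycle as they differentiate.

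The promoters of such genes often hold the letters CCAAT, the site of the factor NF-Y, and TTTGAA, the core of the cell-cycle genes homology region, which is read by MuvB complexes. Promoter sequences from RefSeq (GRCr8) were found for 26 of the 33 genes with a probe, and the 7 without an entry were Pbk, Cenpt, Incenp, Aurkb, Ube2c, Tpx2 and Racgap1. Within the 250 bases before the gene start, on either strand, CCAAT was found in 19 of the 26 genes, against 34.0% of all 33469 promoters, and TTTGAA in 12 of 26, against 16.2%. All 12 genes with TTTGAA also held CCAAT, a pair found in 5.9% of all promoters, and in 1 gene the letters of both overlapped. A match is a description of the letters, not of a bound site. The following windows end at the base before the start of 6 of the 12 genes that held both. They are examples from genes described in the next paragraphs. The windows of Cdca8, Cenpa, Ect2, Kntc1, Ncapd2 and Smc2, genes that also held both within the 250 bases, are not shown. Capitals mark CCAAT or its reverse complement ATTGG, and TTTGAA or its reverse complement TTCAAA.
Aspm: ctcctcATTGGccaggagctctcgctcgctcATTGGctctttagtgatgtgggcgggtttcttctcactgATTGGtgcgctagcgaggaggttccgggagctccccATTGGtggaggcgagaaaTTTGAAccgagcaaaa
Cdc20: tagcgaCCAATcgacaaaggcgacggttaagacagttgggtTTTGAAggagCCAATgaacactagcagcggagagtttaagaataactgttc
Cks2: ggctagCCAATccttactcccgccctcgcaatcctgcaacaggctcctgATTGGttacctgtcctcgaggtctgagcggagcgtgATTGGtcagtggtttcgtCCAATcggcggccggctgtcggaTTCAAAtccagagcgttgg
Hmmr: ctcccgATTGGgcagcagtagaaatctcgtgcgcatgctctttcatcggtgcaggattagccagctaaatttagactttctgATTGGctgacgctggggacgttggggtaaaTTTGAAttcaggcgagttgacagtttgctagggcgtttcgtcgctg
Prc1: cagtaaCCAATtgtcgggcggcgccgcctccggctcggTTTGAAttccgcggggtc
Spc25: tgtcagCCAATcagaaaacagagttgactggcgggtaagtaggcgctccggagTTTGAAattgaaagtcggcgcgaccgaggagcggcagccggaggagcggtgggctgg
In GRCr8 the window of Aspm lies at chr13:53625444-53625583, plus strand, that of Cdc20 at chr5:137255800-137255891, minus strand, and that of Cks2 at chr17:13727520-13727664, minus strand. The window of Hmmr lies at chr10:25665216-25665373, minus strand, that of Prc1 at chr1:143659425-143659480, plus strand, and that of Spc25 at chr3:74396719-74396828, minus strand. The windows of Aspm and Cks2 each held 4 copies of CCAAT and 1 of TTTGAA, while those of Prc1 and Spc25 held 1 of each. The median difference between PD169316 and control at day 1 was 1.22 on the log2 scale in the 11 measured genes with both and 1.15 in the 14 measured genes without the pair.

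The arrays were alike in brightness, with a median deposited intensity per library of 121 to 149 and 9789 to 10773 probes detected. A member probe was read on 22 to 74 beads per library, and the bead standard error of a member's log2 value was 0.027 to 0.265, with a median of 0.067. Libraries of a group correlated at 0.992 to 0.997 outside day 2. At day 2, control library 3 correlated at 0.986 to 0.987 with its own group but at 0.996 to 0.997 with PD169316 libraries 2 and 3, and PD169316 library 1 at 0.980 to 0.983 with its own group but at 0.994 with control libraries 1 and 2. These libraries are named below as labelled, and the day 2 comparisons are also given without them. All 9 oligodendrocyte lineage genes on a marker list, including Olig1, Olig2, Sox10 and Pdgfra, were detected in all 18 libraries.

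The 32 measured genes followed a common course across the 6 groups. The summed normalized intensity of all 33 probes, that of the undetected Cenpa included, was 6981, 12195 and 12617 in day 0 libraries 1, 2 and 3, and 8031 to 8381 in the day 1 controls. It was 18873 to 20037 with PD169316 at day 1, 18876 to 19552 in the day 2 controls, 19230 to 20530 with PD169316 at day 2, and 14711 to 18161 with PD169316 at day 4. Thus the day 1 controls were low and all 6 day 2 libraries were high, while the PD169316 libraries were already high at day 1. The lowest group mean was that of the day 1 controls for 26 of the 32 genes, of day 0 for 5 and of day 4 for 1. The highest was with PD169316 at day 1 for 14 genes, with PD169316 at day 2 for 11, in the day 2 controls for 6 and at day 4 for 1.

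**Figure D1:**
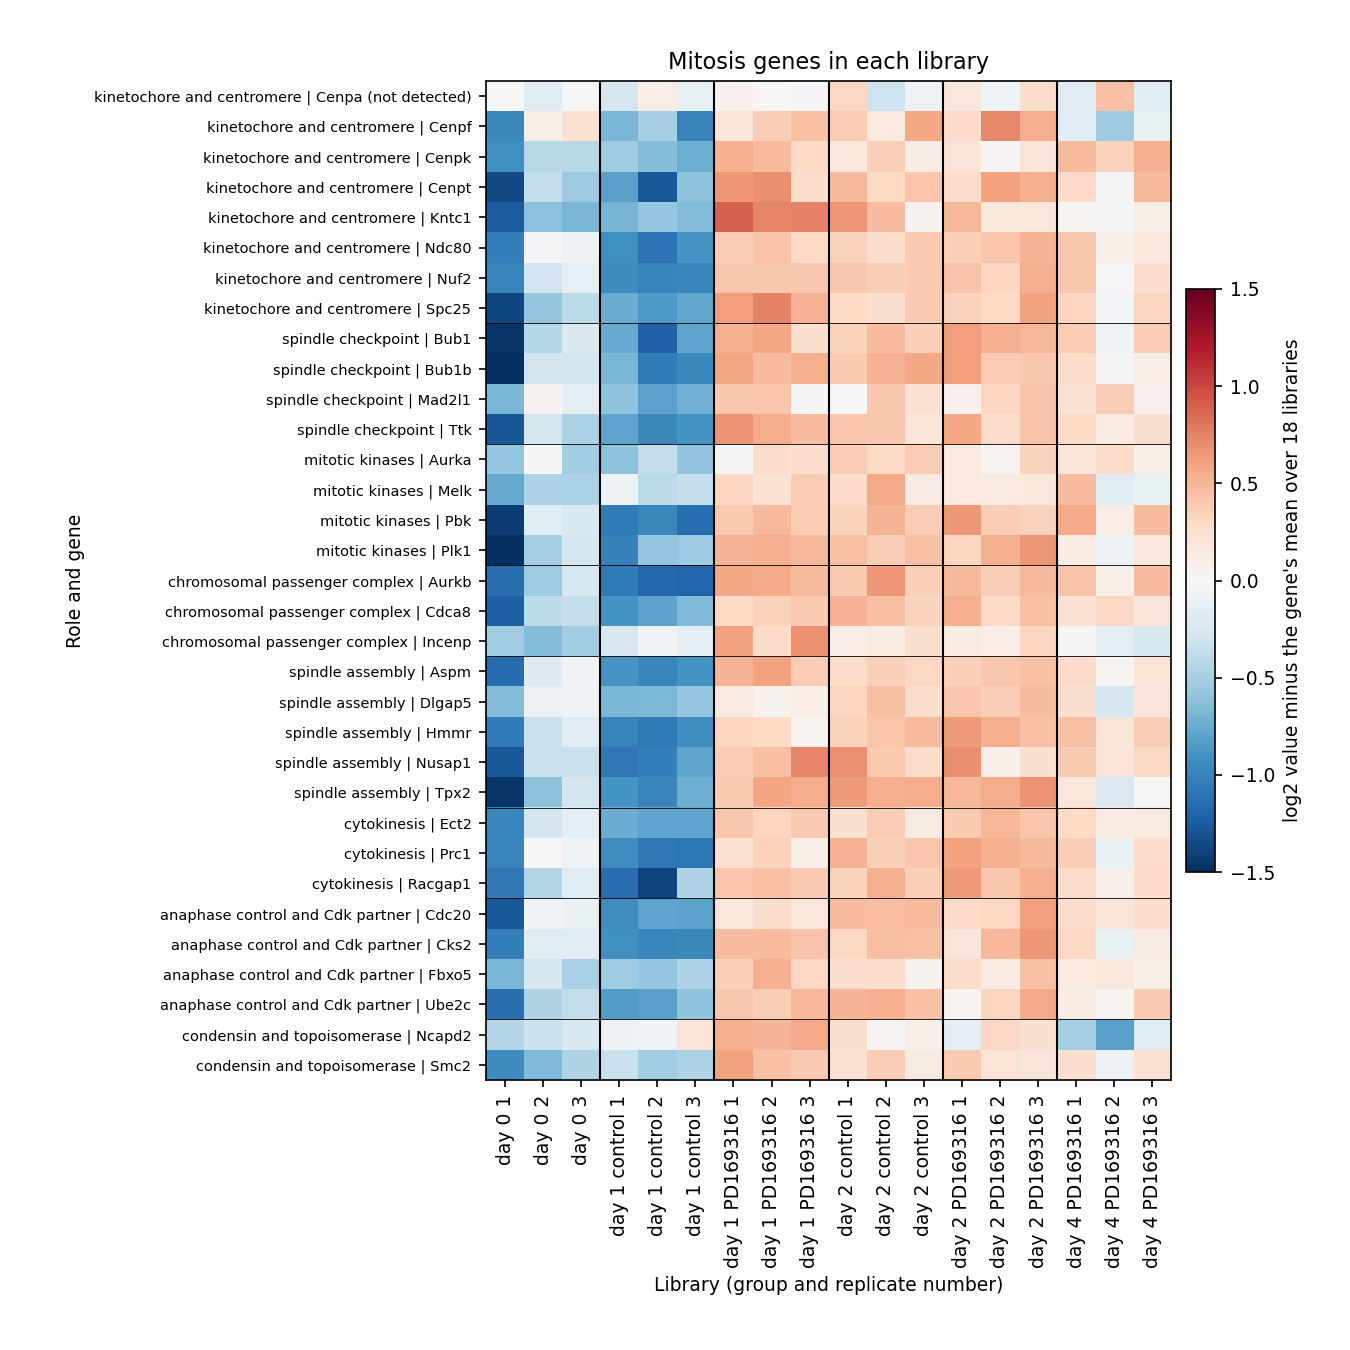
Log2 value of each of the 33 genes with a probe (rows, ordered by role) in each of the 18 libraries (columns, ordered by group), minus the gene's mean over all libraries; red is above that mean and blue below. The day 1 controls and day 0 library 1 are blue for nearly all genes, the day 1 PD169316 and day 2 libraries are red, and Cenpa, which was not detected, shows no such pattern.

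The first question was how PD169316 changed these genes in differentiating cells at day 1. All 32 measured genes were higher with PD169316 than in the day 1 controls at an adjusted p under 0.05, where 6.59% of all 10574 probes tested were higher and 4.48% lower. The median difference was 1.24 on the log2 scale, or 2.36-fold, and 0.57% of all probes lay above it. The 3 PD169316 libraries were above all 3 controls for each of the 32 genes, an order found in 20.8% of all probes. Differences ran from 0.51 for the condensin subunit Ncapd2 to 1.69 for the kinase Aurkb. With the deposited intensities used without normalization, 24 of the 32 genes passed, all higher, with a median of 0.86. There 236 of all probes passed, 52.5% of them higher. Some of these genes stand in the study's own lists, which were drawn from these libraries, so their direction is not independent evidence.

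**Figure D2:**
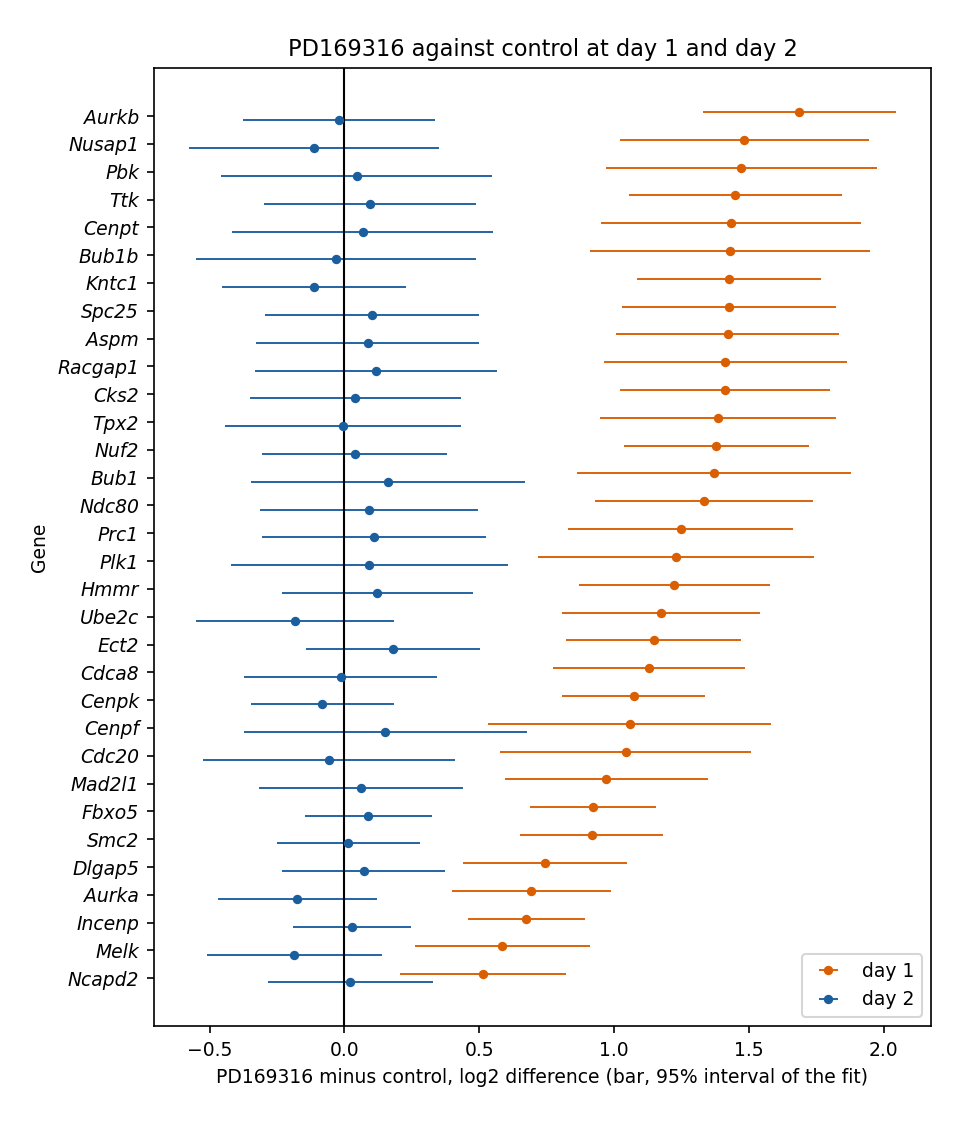
Difference between PD169316 and control in log2 units for each of the 32 measured genes at day 1 (orange) and day 2 (blue), with the 95% interval of the fit over 18 libraries. All 32 day 1 differences lie above 0, from 0.51 to 1.69, and all 32 day 2 intervals include 0.

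Kinetochores join chromosomes to the spindle, and Spc25 and Nuf2 are subunits of the NDC80 complex that binds the microtubule. Spc25 read 8.04, 8.84 and 9.03 in day 0 libraries 1 to 3, 8.68, 8.56 and 8.64 in the day 1 controls and 10.05, 10.17 and 9.94 with PD169316 at day 1. It read 9.72, 9.66 and 9.82 in the day 2 controls, 9.77, 9.72 and 10.02 with PD169316 at day 2 and 9.75, 9.41 and 9.75 at day 4. The day 1 controls lay inside the wide range of day 0, and every later or PD169316 library lay above both groups. At day 1 the difference with PD169316 was 1.43 ± 0.19 (SE; 2.69-fold, adjusted p = 0.00014). Nuf2 read 8.17, 8.87 and 9.03 at day 0, 8.22, 8.16 and 8.18 in the day 1 controls and 9.56, 9.57 and 9.57 with PD169316 at day 1. Its later values were 9.57, 9.52 and 9.55 in the day 2 controls, 9.58, 9.48 and 9.70 with PD169316 at day 2 and 9.57, 9.15 and 9.41 at day 4. The 3 libraries of each day 1 group agree closely for Nuf2, and the groups differed by 1.38 ± 0.16 (SE; adjusted p = 5.7e-05). The 7 measured kinetochore and centromere genes all rose with PD169316 at day 1, by 1.06 for Cenpf, a large kinetochore protein, to 1.43 for Cenpt, which links the centromere to the NDC80 complex. Kntc1, a part of the complex that brings dynein to kinetochores, rose by 1.43.

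The spindle checkpoint holds back anaphase while kinetochores are unattached, and Ttk (also called Mps1) and Bub1 are kinases that start it. Ttk read 7.09, 8.12 and 7.90 at day 0, 7.58, 7.41 and 7.48 in the day 1 controls and 9.04, 8.93 and 8.83 with PD169316 at day 1. It read 8.79, 8.77 and 8.55 in the day 2 controls, 8.95, 8.65 and 8.80 with PD169316 at day 2 and 8.66, 8.50 and 8.61 at day 4. Every day 1 control of Ttk was more than 1 log2 unit below every day 1 PD169316 library, with a difference of 1.45 ± 0.19 (SE; adjusted p = 0.00012). Bub1 read 6.81, 7.85 and 8.06 at day 0, 7.51, 7.05 and 7.48 in the day 1 controls and 8.80, 8.84 and 8.51 with PD169316 at day 1. Its values were 8.61, 8.73 and 8.63 in the day 2 controls, 8.89, 8.80 and 8.76 with PD169316 at day 2 and 8.65, 8.21 and 8.65 at day 4. Day 0 library 1 was the lowest of all 18 libraries for Bub1, and the day 1 difference with PD169316 was 1.37 ± 0.24 (SE; adjusted p = 0.0015). Bub1b, the checkpoint protein BubR1, rose by 1.43. Mad2l1, a checkpoint protein that helps inhibit the anaphase-promoting complex, was not well above background in any day 1 control library. Its level with PD169316 at day 1 was therefore at least 1.45-fold higher (limma adjusted p = 0.0021). This bound sets the mean of the brighter group against the lowest signal that counted as detected on each array.

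Among the mitotic kinases, Plk1 acts in spindle assembly, at kinetochores and in cytokinesis, and Pbk is a kinase that is active in mitosis. Pbk read 8.12, 9.36 and 9.31 at day 0, 8.49, 8.57 and 8.41 in the day 1 controls and 9.94, 10.03 and 9.92 with PD169316 at day 1. It then read 9.88, 10.06 and 9.92 in the day 2 controls, 10.19, 9.91 and 9.89 with PD169316 at day 2 and 10.11, 9.64 and 10.01 at day 4. The day 1 difference was 1.47 ± 0.24 (SE; adjusted p = 0.00071), and the later groups overlapped with the day 1 PD169316 libraries. Plk1 read 6.03, 7.14 and 7.37 at day 0, 6.63, 7.06 and 7.09 in the day 1 controls and 8.15, 8.19 and 8.13 with PD169316 at day 1. Its values were 8.08, 8.01 and 8.07 in the day 2 controls, 7.97, 8.17 and 8.31 with PD169316 at day 2 and 7.75, 7.57 and 7.80 at day 4. Plk1 was the gene for which day 0 library 1 stood lowest against the day 1 controls, and it rose by 1.23 ± 0.24 (SE; adjusted p = 0.0035) with PD169316 at day 1. The smallest rises among the kinases were 0.59 for Melk and 0.69 for Aurka, the kinase of the centrosome and spindle poles.

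The chromosomal passenger complex corrects faulty attachments through its kinase Aurkb, with Incenp as scaffold and Cdca8 (borealin) as a targeting subunit. Aurkb read 8.35, 8.94 and 9.24 at day 0, 8.41, 8.29 and 8.28 in the day 1 controls and 10.05, 10.04 and 9.95 with PD169316 at day 1. It read 9.86, 10.12 and 9.83 in the day 2 controls, 9.96, 9.84 and 9.96 with PD169316 at day 2 and 9.90, 9.55 and 9.94 at day 4. Its day 1 groups were apart, and the difference was the largest of the 32 genes, 1.69 ± 0.17 (SE; 3.22-fold, adjusted p = 1.4e-05). Cdca8 read 8.00, 8.84 and 8.87 at day 0, 8.33, 8.43 and 8.57 in the day 1 controls and 9.53, 9.57 and 9.62 with PD169316 at day 1. It read 9.75, 9.68 and 9.56 in the day 2 controls, 9.77, 9.52 and 9.66 with PD169316 at day 2 and 9.44, 9.54 and 9.41 at day 4. The groups did not overlap at day 1 and differed by 1.13 ± 0.17 (SE; adjusted p = 0.00039). Incenp rose by 0.67 ± 0.10 (SE; adjusted p = 0.00046), less than its partners.

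Spindle assembly genes included Aspm, a spindle-pole protein whose human gene is linked to microcephaly, and Dlgap5 (HURP), which stabilizes microtubules near chromosomes. Aspm read 8.15, 9.11 and 9.27 at day 0, 8.42, 8.32 and 8.40 in the day 1 controls and 9.81, 9.90 and 9.69 with PD169316 at day 1. It read 9.58, 9.66 and 9.61 in the day 2 controls, 9.66, 9.70 and 9.74 with PD169316 at day 2 and 9.59, 9.33 and 9.51 at day 4. The day 1 difference was 1.42 ± 0.19 (SE; adjusted p = 0.00021). Dlgap5 read 8.78, 9.34 and 9.36 at day 0, 8.75, 8.75 and 8.85 in the day 1 controls and 9.57, 9.48 and 9.53 with PD169316 at day 1. It read 9.75, 9.89 and 9.70 in the day 2 controls, 9.85, 9.80 and 9.90 with PD169316 at day 2 and 9.67, 9.17 and 9.61 at day 4. Dlgap5 showed the smallest rise of this class, 0.74 ± 0.14 (SE; adjusted p = 0.003), and with the deposited intensities it did not pass. Nusap1, which bundles microtubules, rose by 1.48, Tpx2, the activator of Aurka on the spindle, by 1.39, and Hmmr, a spindle protein and hyaluronan receptor, by 1.22.

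For cytokinesis, Prc1 bundles the antiparallel microtubules of the midzone and Ect2 activates RhoA at the cleavage furrow. Prc1 read 9.78, 10.77 and 10.71 at day 0, 9.84, 9.70 and 9.69 in the day 1 controls and 11.00, 11.11 and 10.86 with PD169316 at day 1. It read 11.29, 11.13 and 11.19 in the day 2 controls, 11.38, 11.31 and 11.26 with PD169316 at day 2 and 11.14, 10.67 and 11.05 at day 4. Day 0 libraries 2 and 3 of Prc1 stood about 1 log2 unit above the day 1 controls, whereas library 1 was level with them. With PD169316 at day 1 it was 2.37-fold higher (adjusted p = 0.0006). Ect2 read 6.58, 7.28 and 7.41 at day 0, 6.82, 6.78 and 6.77 in the day 1 controls and 7.96, 7.88 and 7.96 with PD169316 at day 1. It read 7.80, 7.94 and 7.70 in the day 2 controls, 7.95, 8.06 and 7.98 with PD169316 at day 2 and 7.86, 7.69 and 7.69 at day 4. Its day 1 groups were apart and differed by 1.15 ± 0.15 (SE; adjusted p = 0.00016). Racgap1, a subunit of the centralspindlin complex that recruits Ect2, rose by 1.41 and was detected in 2 of the 3 day 1 control libraries.

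Cdc20 activates the anaphase-promoting complex at the start of anaphase, Ube2c supplies it with ubiquitin, Fbxo5 (Emi1) inhibits it, and Cks2 is a small partner of cyclin-dependent kinases. Cks2 read 9.98, 10.83 and 10.84 at day 0, 10.08, 10.03 and 10.03 in the day 1 controls and 11.46, 11.48 and 11.44 with PD169316 at day 1. It read 11.32, 11.45 and 11.44 in the day 2 controls, 11.18, 11.50 and 11.66 with PD169316 at day 2 and 11.31, 10.90 and 11.13 at day 4. The day 1 difference was 1.41 ± 0.18 (SE; adjusted p = 0.00013). Cdc20 read 7.96, 9.16 and 9.14 at day 0, 8.29, 8.44 and 8.43 in the day 1 controls and 9.40, 9.49 and 9.40 with PD169316 at day 1. It read 9.69, 9.68 and 9.70 in the day 2 controls, 9.52, 9.54 and 9.84 with PD169316 at day 2 and 9.51, 9.43 and 9.51 at day 4. Cdc20 rose by 1.04 ± 0.22 (SE; adjusted p = 0.0058), a call that did not hold with the deposited intensities. Ube2c rose by 1.17 and Fbxo5 by 0.92.

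Smc2 and Ncapd2 are subunits of condensin, the complex that compacts chromosomes, and they departed from the common course at day 1 or day 4. Some members of other classes did so too. The day 1 control mean was also above that of day 0 for Kntc1 (6.93 against 6.72) and Melk (6.07 against 5.78). The same held for Incenp (6.69 against 6.27) and Plk1 (6.93 against 6.85). For Cenpf the day 4 mean (6.45) was below that of day 0 (6.50). Smc2 read 8.37, 8.65 and 8.86 at day 0, 8.98, 8.79 and 8.85 in the day 1 controls and 9.92, 9.75 and 9.71 with PD169316 at day 1. It read 9.54, 9.68 and 9.45 in the day 2 controls, 9.70, 9.51 and 9.50 with PD169316 at day 2 and 9.56, 9.22 and 9.54 at day 4. Its day 1 controls overlapped with day 0 around a higher mean, and it rose with PD169316 at day 1 by 0.92 ± 0.12 (SE; adjusted p = 0.00019). Ncapd2 read 7.51, 7.62 and 7.72 at day 0, 7.87, 7.91 and 8.15 in the day 1 controls and 8.50, 8.46 and 8.51 with PD169316 at day 1. It read 8.19, 7.97 and 8.03 in the day 2 controls, 7.81, 8.26 and 8.19 with PD169316 at day 2 and 7.46, 7.14 and 7.77 at day 4. Its day 1 difference, 0.51 ± 0.14 (SE; adjusted p = 0.031), was the smallest of the 32 and was not called with the deposited intensities or without the filter on dim probes. Ncapd2 was also the gene whose day 4 mean was the lowest of its 6 groups.

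**Figure D3:**
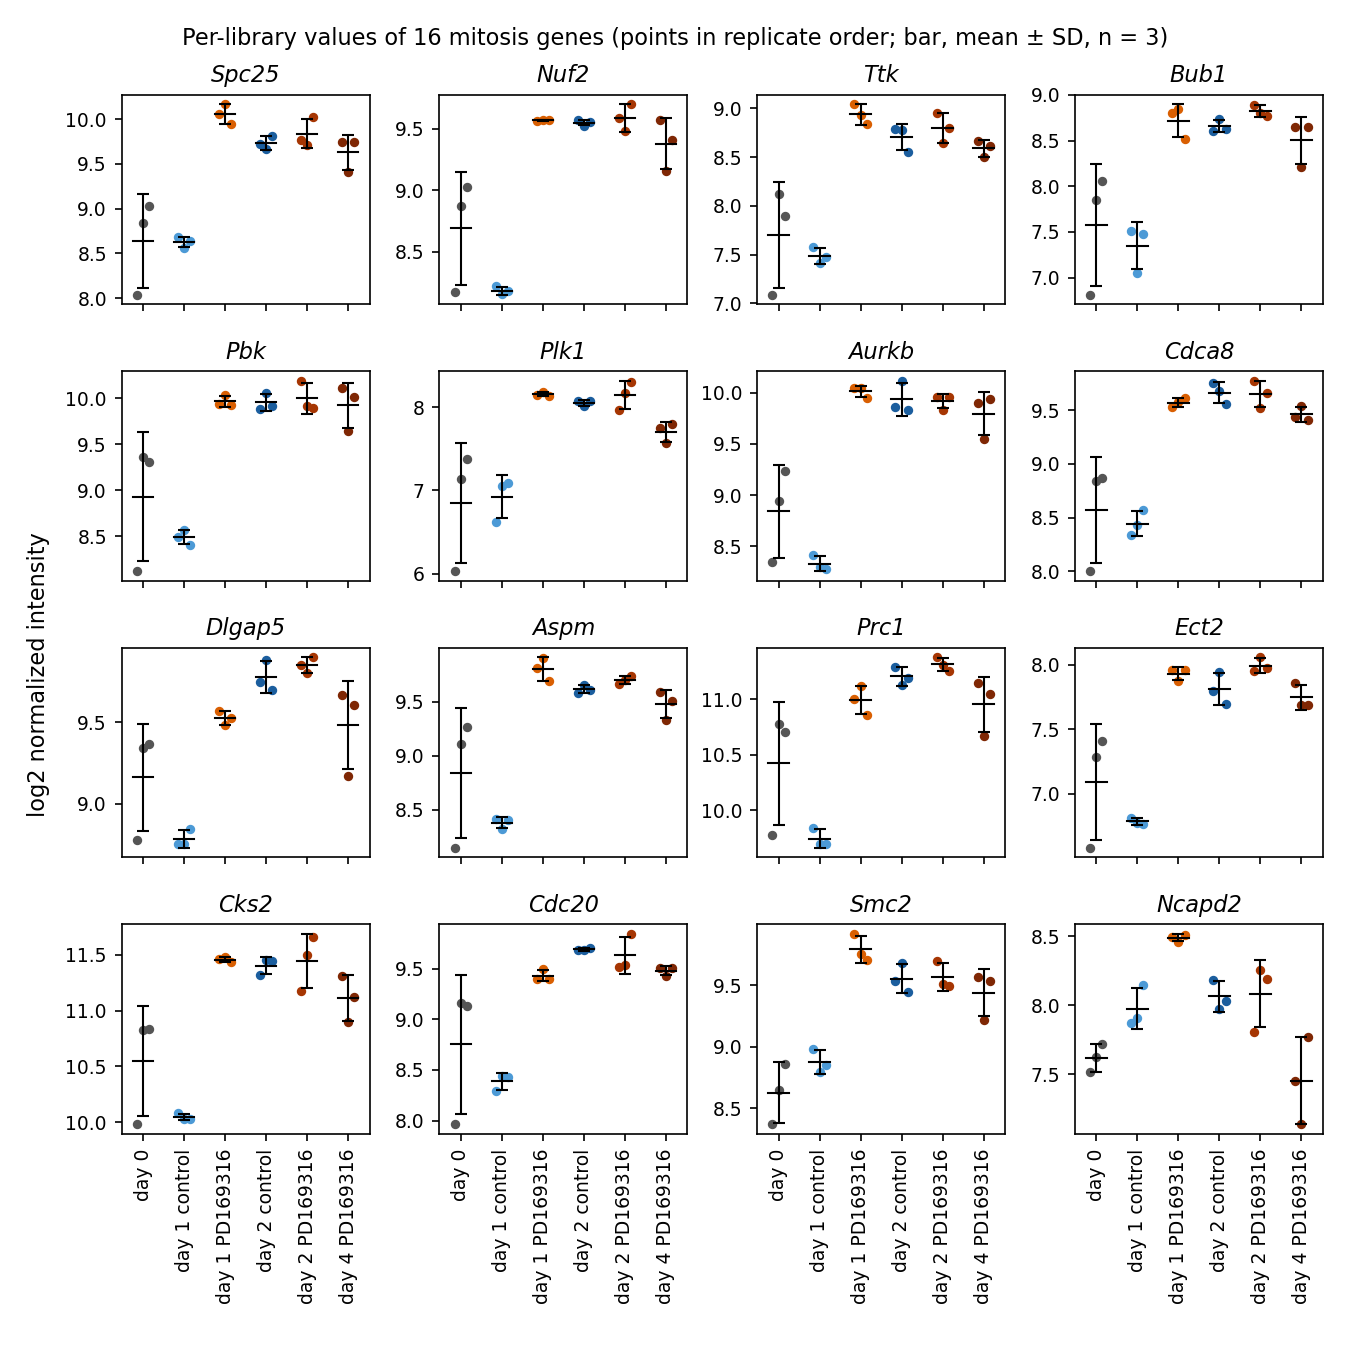
Log2 normalized intensity of 16 mitosis genes, the 2 with the highest mean level in each of 8 roles, in each library of the 6 groups, with the group mean and SD (n = 3). Day 0 library 1, the left point of the first group, lies below the other day 0 libraries in all 16 panels, and the day 1 PD169316 points lie above the day 1 controls in all 16.

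The second question was whether these genes fell as cells began to differentiate without inhibitor. Between day 0 and the day 1 controls, 5 of the 32 genes were lower and 1 higher, with a median of -0.22, where 13.3% of all probes were lower and 13.8% higher, so that the share of members that fell was close to that of all probes. The genes that fell were Prc1 (-0.68 ± 0.20, SE; adjusted p = 0.019), Ndc80, the microtubule-binding subunit of the NDC80 complex (-0.60), Aurkb (-0.51), Nuf2 (-0.51) and Hmmr (-0.49). Incenp rose by 0.42 ± 0.10 (SE; adjusted p = 0.0073), a direction that turned when the deposited intensities were used (-0.03). The 26 others did not pass. For 29 of the 32 genes the day 1 controls overlapped with day 0, and for Incenp, Melk and Ncapd2 they lay above it. Over all probes the controls lay above day 0 for 25.5% and below it for 23%. The outcome depended on which day 0 libraries were used. Without day 0 library 1, 20 genes fell and 1 rose, and the median was -0.57. In that setting 2187 of all 10574 probes were called, 49.5% of them higher. Without day 0 library 2, or without library 3, no gene fell and 1 rose. Of all probes 1973 and 2063 were then called, 49.4% and 50.3% of them higher.

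Day 0 library 1 was low in nearly all of these genes. It was the lowest of the 3 day 0 libraries for 31 of the 32 genes, as it was for 34.3% of all probes, and Incenp was the exception. It lay below the mean of libraries 2 and 3 by a median of 0.83 on the log2 scale, the difference ranging from -1.29 to 0.07, and 0.549% of all probes lay below that median. It was over 0.5 below them for 26 of the 32 genes and for 2.58% of all probes. For 28 genes the gap exceeded 2 bead standard errors, which was not counted over all probes. Libraries 2 and 3 differed from each other by a median of -0.03. The median SD of the 32 genes at day 0 was 0.48, against 0.095 to 0.16 in the other 5 groups, and over all probes it was 0.11 at day 0.

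Against the day 1 controls, day 0 library 1 was lower by a median of 0.34, and libraries 2 and 3 were higher by a median of 0.57. Libraries 2 and 3 were both above every day 1 control library for 25 of the 32 genes and for 27.6% of all probes. Library 1 was below every one for 22 genes and for 37.4% of all probes. Bub1b was 5.78 in library 1 against 7.07 in both others, and Plk1 was 6.03 against 7.14 and 7.37. Over all probes the 3 day 0 libraries correlated at 0.995 to 0.997, and library 1 had a median intensity of 141 and 10143 probes detected, beside 149 and 145 and 10683 and 10290 in the others. Of the marker lists, library 1 was lowest for all 4 measured microglia and macrophage genes, whose median gap was -0.29. The summed level of the 6 probes of that list was 3701 against 4689 and 4868, a sum that mostly follows Aif1, the brightest. For 31 other mitosis genes, described below, the median gap was -0.30, library 1 was lowest for 22, and it was over 0.5 below the others for 13, or 41.9%. For the 9 oligodendrocyte lineage genes the median gap was 0.04, and for the 17 measured cohesin and anaphase-promoting complex genes it was 0.01. The part of these other cell types in the day 0 spread was not tested.

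**Figure D4:**
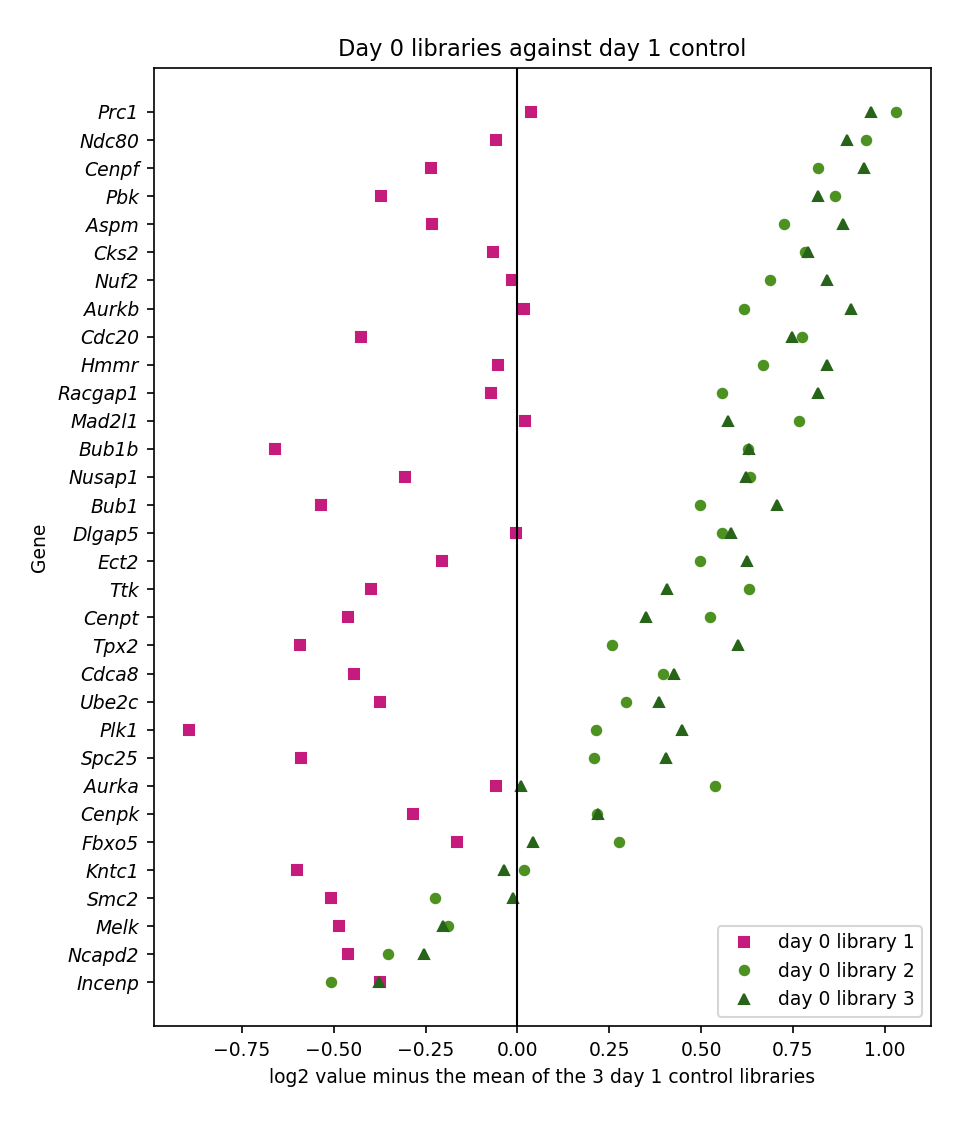
Log2 value of each of the 32 measured genes in each day 0 library, minus the mean of the 3 day 1 controls of that gene (vertical line at 0). Library 1 (squares) lies at or below the line for most genes, and libraries 2 and 3 lie above it for 25 of the 32 genes relative to every control library.

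**Figure D5:**
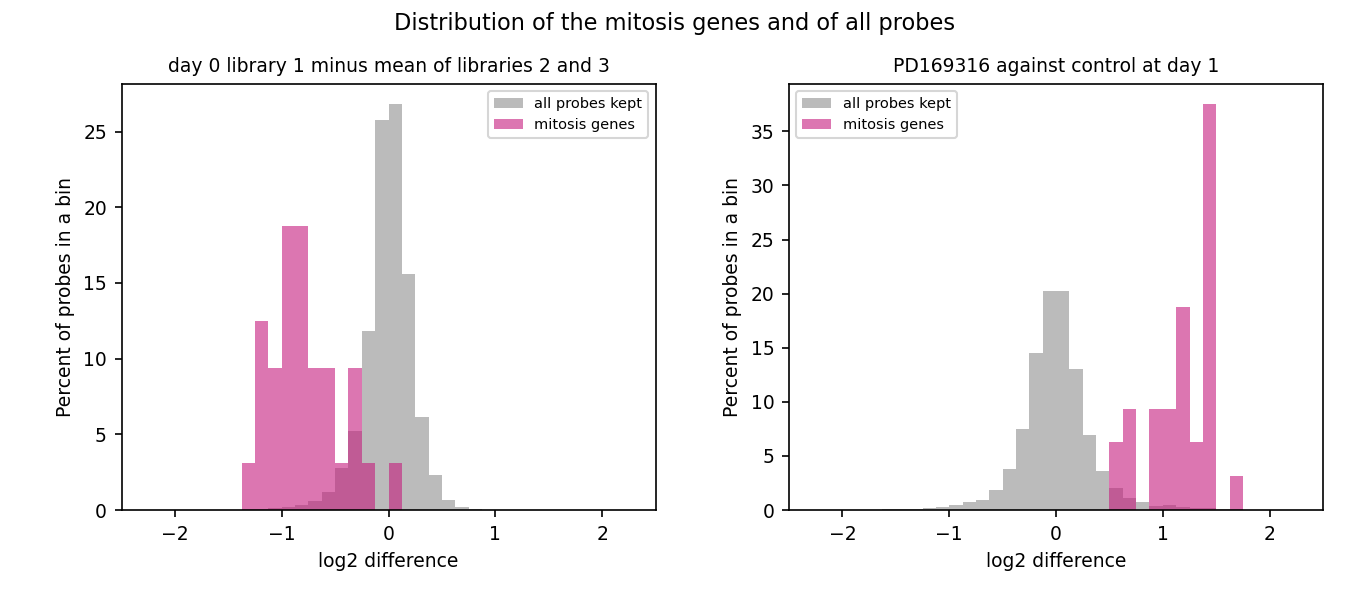
Percent of the 32 measured mitosis genes (pink) and of all 10574 probes tested (grey) in bins of log2 difference, for day 0 library 1 minus the mean of libraries 2 and 3 (left) and for PD169316 against control at day 1 (right). The genes lie around medians of -0.83 and 1.24, and all probes lie around 0.

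The third question was whether the controls stayed low. From day 1 to day 2 in the controls, 30 of the 32 genes rose and none fell, with a median of 1.23, or 2.34-fold, where 8.42% of all probes rose and 8.97% fell. Aurkb rose most (1.61 ± 0.17, SE; adjusted p = 2.9e-05), followed by Pbk (1.46) and Prc1 (1.46). Ncapd2 (0.09, adjusted p = 0.72) and Incenp (0.30, adjusted p = 0.057) did not pass. Mad2l1 was at least 1.40-fold higher in the day 2 controls. The day 2 controls were also above day 0 for 31 of the 32 genes, with a median of 0.93, where 20.6% of all probes were higher and 21.6% lower, and Cenpf (0.58, adjusted p = 0.069) was the exception. Tpx2 (1.36), Kntc1 (1.24) and Plk1 (1.21) showed the largest differences from day 0. Without day 0 library 1 the median against day 0 was 0.68 and 29 genes passed. Of all probes 3682 then passed, 49.7% of them higher. With the deposited intensities 6 passed, and Mad2l1 turned in direction. There 4697 of all probes passed, only 9.84% of them higher. Without day 2 control library 3 and PD169316 library 1, 30 genes were higher than in the day 1 controls (median 1.27) and 30 higher than at day 0 (median 0.96). Of all probes 3339 and 5397 then passed, 47.7% and 49.3% of them higher.

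Some cell type markers moved between the same controls, where 8.42% of all probes rose and 8.97% fell. From day 1 to day 2, 2 of 4 measured microglia and macrophage genes rose and none fell, with a median of 0.73, and the sum over the 6 probes of that list was 4279 to 5063 against 2497 to 2695. Of 4 measured fibroblast and vessel genes 2 rose and none fell, with a median of 0.51. Their sums over 5 probes were 1144 to 1692 against 624 to 1085. The microglia and macrophage sum mostly follows Aif1, and the fibroblast and vessel sum Col1a2, the brightest probes of these lists. Of the oligodendrocyte lineage genes 1 rose and 2 fell, and 1 astrocyte and 1 neuron gene fell. Their part in the rise of the mitosis genes was not tested.

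At day 2, no member differed between PD169316 and control at an adjusted p under 0.05, nor did any of the 10574 probes, and no member had an unadjusted p under 0.05 in limma, as 469 of all probes did. With array weights, under which 3946 of all probes passed, 1 of the 32 genes did, lower. The median difference was 0.04, and the differences ran from -0.19 for Melk to 0.18 for Ect2. The 95% intervals of the 32 genes lay between -0.58 and 0.68, and those of 29 genes were within 1.5-fold either way. The 3 PD169316 libraries were above the 3 controls for Aspm, Bub1 and Ect2, an order found in 3.14% of all probes. All 6 day 2 libraries held similar levels whatever their label. The 6 values of a gene spanned a median of 0.33, with a range of 0.16 to 0.62 over the 32 genes. For 31 genes all 6 were above every day 1 control library, an order found in 10.4% of all probes, and for 30 above every day 0 library, found in 19.3%. Without control library 3 and PD169316 library 1, which correlate best with the other label, the median difference was 0.03 and none of the 32 genes passed, while 2500 of all probes did.

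The effect of PD169316 at day 2 was below that at day 1 for 24 of the 32 genes when the difference itself was tested, with a median of -1.18. Among all probes 1.52% were called in the upward and 2.33% in the downward direction. The difference was -1.71 ± 0.24 (SE; adjusted p = 0.00077) for Aurkb, -1.60 for Nusap1 and -1.54 for Kntc1. Bub1, Plk1, Cdc20, Mad2l1, Cenpf, Melk, Dlgap5 and Ncapd2 did not pass, with adjusted p from 0.057 to 0.22. With the deposited intensities no gene passed, and the median was -0.80. There 18 of all probes passed, 72.2% of them higher. Without the 2 day 2 libraries that correlate best with the other label, 26 passed and the median was -1.23. The PD169316 libraries themselves changed little between day 1 and day 2, with a median of -0.01. None of the 32 genes was called, 5 having an unadjusted p under 0.05 in limma, where 2.75% of all probes rose and 2.83% fell, with array weights 6 were called, 1 higher and 5 lower, and without the 2 libraries 1 was, lower (median 0.03). Kntc1 had the lowest difference (-0.50, adjusted p = 0.082) and Dlgap5 the highest (0.32, adjusted p = 0.2).

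Set against day 0, which all the following comparisons share, 30 genes were higher with PD169316 at day 1 (median 0.99), 32 at day 2 (median 0.92) and 29 at day 4 (median 0.78), and none was lower. Of all probes 16.2% were higher and 14.9% lower at day 1, 17.9% and 18.4% at day 2, and 23.2% and 27.5% at day 4. Kntc1 (1.63), Spc25 (1.42) and Plk1 (1.31) were the furthest above day 0 at day 1, and Cenpf and Dlgap5 did not pass. At day 2 these were Tpx2 (2.57-fold), Plk1 (2.46-fold) and Bub1 (2.37-fold). At day 4 they were Cenpk, a centromere protein (1.04), Cenpt (1.01) and Spc25 (0.99), while Ncapd2 (-0.17), Cenpf (-0.05) and Dlgap5 (0.32) did not pass. Without day 0 library 1 the counts were 27, 29 and 25, and the medians were 0.77, 0.67 and 0.47. Of all probes 2558, 3031 and 4691 were then called, 52.7%, 50.6% and 46.4% of them higher. With the deposited intensities the counts were 13, 11 and 9. There 3683, 3780 and 3518 of all probes were called, only 5.84%, 10.4% and 33.1% of them higher. Without the 2 day 2 libraries named above, 32 were higher at day 2, with a median of 0.93. In that setting 4040 of all probes were called, 50.3% of them higher.

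From day 2 to day 4 with PD169316, 3 genes fell and none rose, where 13.1% of all probes fell and 10.2% rose. They were Cenpf (-0.78 ± 0.25, SE; adjusted p = 0.032), Ncapd2 (-0.63, adjusted p = 0.0071) and Incenp (-0.32, adjusted p = 0.037). The median of all 32 genes was -0.21, and Cenpk had the highest difference (0.31, adjusted p = 0.078). Against day 1 with PD169316, the day 4 libraries were lower in Ncapd2 (-1.04 ± 0.14, SE; adjusted p = 6.7e-05), Kntc1 (-0.75), Incenp (-0.66) and Smc2 (-0.35), where 24.4% of all probes were lower and 19.4% higher. In neither comparison was the share of members called lower above that of all probes. The means were nonetheless lower at day 4 for 30 of the 32 genes against day 2 and for 28 against day 1. Of all probes 74.0% lay above the member median in the first comparison and 68.9% in the second. All groups share 1 estimate of the spread, and both counts of called genes changed when 1 library was left out. Without day 0 library 1 they were 10, of which 1 was higher, and 13, and without day 0 library 3 the second was 7. Of all probes 2359 and 4598 were called without day 0 library 1, 43.7% and 44.0% of them higher. Without day 0 library 3, 4513 were called in the second comparison, 44.3% of them higher. Without PD169316 day 2 library 2, day 2 library 3 or day 4 library 2, the first count was 1, beside 1164, 1236 and 1408 of all probes. Without both day 2 libraries named above it was 3, with a median of -0.24. Within day 4, library 2 was the lowest for 27 of the 32 genes, as in Dlgap5 (9.17 against 9.67 and 9.61). How often it was the lowest over all probes was not counted. For 28 genes all 3 day 4 libraries were above every day 1 control library, as for 25.7% of all probes.

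Other genes of mitosis were read in the same way. Of a further list of 62 mitosis genes, 31 were measured. At day 1 PD169316 raised 22 and lowered 1, with a median of 0.62, beside 6.59% and 4.48% of all probes. Cdca3, which promotes destruction of the kinase Wee1 (1.68 ± 0.29, SE), Cdca2, a phosphatase subunit of anaphase chromatin (1.58), and Mastl, the kinase Greatwall (1.36) were among those that rose. Pkmyt1, which inhibits Cdk1, rose by 1.31 and Foxm1, a transcription factor of G2 and M phase genes, by 0.76. Haus8, a subunit of the augmin complex, fell by 0.53. From day 0 to the day 1 controls 7 of the 31 rose and 4 fell, with a median of -0.05. Of all probes 13.8% rose and 13.3% fell in that comparison. From the day 1 to the day 2 controls 18 of the 31 rose and none fell, with a median of 0.65. There 8.42% of all probes rose and 8.97% fell. At day 2 none of the 31 passed between PD169316 and control, with a median of 0.01. Genes of cohesin and the core of the anaphase-promoting complex encode proteins also present outside mitosis. With PD169316 at day 1, 2 of the 17 measured rose and none fell, with a median of 0.03. In that comparison 6.59% of all probes were higher and 4.48% lower.

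Markers of cell types were read beside these results. The sums are of linear intensities and mostly follow the brightest probes of each list. With PD169316 at day 1, 6.59% of all probes were higher and 4.48% lower. With PD169316 at day 1, 4 of 9 oligodendrocyte lineage genes fell and none rose, and their summed level was 75099 to 78483 against 97439 to 98922 in the controls. Of 6 astrocyte genes 1 fell, with sums of 17811 to 19130 against 25356 to 26055. Most of that drop was in Gfap, the brightest, with a mean of 14.14 in the controls and 13.53 with PD169316. S100b alone had a higher mean with PD169316 (10.84 against 10.39). The 4 measured microglia and macrophage genes did not pass, with sums over all 6 probes of the list of 2699 to 3172 against 2497 to 2695. In the day 1 controls 3 of the 4 were lower than at day 0, as were 13.3% of all probes. Of 8 neuron genes 1 rose, with sums of 10391 to 11086 against 8302 to 8836, and none of the 4 measured fibroblast and vessel genes passed (sums over all 5 probes of 822 to 1161 against 624 to 1085). Among defining markers, Gfap, Aif1 and Snap25 were detected in all 18 libraries, Ptprc in 3 and Cx3cr1 in 1. The part of these cell types in the mitosis results was not tested.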

How the data were processed

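Total RNA of 18 samples was hybridised to Illumina RatRef-12 bead arrays. The deposited tables give, per the file headers, each probe's mean bead intensity on a linear scale, its detection p-value and bead standard error, and a count of its beads (as deposited). The authors' value table equalled the non-normalized intensities in all 405414 values, so it held no normalization. Genes were named from the platform annotation, in which 13793 probes have 1 symbol and 8730 none. The neqc function of limma 3.58.1 (R 4.3.3) was used for normexp background correction from the detection p-values, an offset of 16, quantile normalization and the log2 step. The filter left 10574 probes, each detected (p under 0.01) by every array in 1 group or more. A mean for each of 6 groups was fitted over all 18 arrays with lmFit and eBayes, which is two-sided, with 12 residual degrees of freedom, and p-values were adjusted by the Benjamini-Hochberg method over all probes kept. Calls are at an adjusted p under 0.05. The number of arrays limits the precision. The steps were tested on simulated data. The study's methods use 1.25-fold and a p under 0.05 after an empirical Bayes correction in their array software. As an alternative the same limits were set on the unadjusted limma p, without that correction.

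The members and lists were chosen with earlier results of these data known. Per-library values are given for the 2 members of each of 8 roles with the highest mean level, and otherwise the 3 largest called differences in each direction and members that depart from the rest are named. Figures were drawn with matplotlib 3.10.9.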

Additional observations from a re-analysis of the deposited data

Results flagged for a closer look

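The effect of PD169316 on the mitosis genes differed between days when the difference itself was tested in limma. For 24 of the 32 genes the effect at day 2 was below that at day 1, and every value is the effect at day 2 minus that at day 1 on the log2 scale. The day 2 effect itself was between -0.19 and 0.18 and the day 1 effect between 0.51 and 1.69. The values rest on the day 2 labels, which 2 libraries go against. Without both of those libraries 26 genes passed.

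Of the 16 genes given per library, 11 passed. The value was -1.71 ± 0.24 (SE; adjusted p = 0.00077) for Aurkb, -1.43 ± 0.33 for Pbk, -1.37 ± 0.26 for Cks2, -1.35 ± 0.26 for Ttk and -1.34 ± 0.23 for Nuf2. It was -1.33 ± 0.28 for Aspm, -1.32 ± 0.26 for Spc25, -1.14 ± 0.24 for Cdca8, -1.14 ± 0.28 for Prc1, -0.97 ± 0.21 for Ect2 and -0.90 ± 0.18 for Smc2. The adjusted p of these 11 genes was at most 0.031.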

How the results depend on the processing

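With PD169316 at day 1, 30 to 32 of the 32 genes were called, all higher, when 1 library was left out, and 24 with the deposited intensities. Of 221 called gene results, 2 changed sign in any of 29 alternatives, both with the deposited intensities. Unnormalized intensities put the median of all probes at -0.25 between day 0 and the day 1 controls, -0.28 to the day 2 controls, -0.27, -0.25 and -0.12 to PD169316 at day 1, 2 and 4, and 0.12 and 0.14 from day 2 and day 1 to day 4. Of all probes called, the share that was higher then moved from 50.8% to 4.88%, 48.8% to 9.84%, 52.0% to 5.84%, 49.3% to 10.4%, 45.7% to 33.1%, 43.7% to 95% and 44.3% to 85.4% in the same order. It moved from 48.4% to 65.4% for day 2 against day 1 in the controls, from 49.3% to 77.6% with PD169316 (39.2% with scaling to the 75th percentile), and from 39.6% to 72.2% for the change of the PD169316 effect.

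The counts that changed were as follows. For the day 1 controls against day 0, 14 genes were called with the deposited intensities, 2 without the filter, 2 with only the arrays compared, 15 with array weights, 11 with the methods' limits set on the unadjusted limma p, and 1 to 21 with 1 library left out. With the deposited intensities, 6 genes were called for the day 2 controls against day 0, 13, 11 and 9 for PD169316 at day 1, 2 and 4 against day 0, and 0 for the change of the PD169316 effect. Leaving out 1 library gave 29 to 32, 27 to 32, 29 to 32, 25 to 30 and 18 to 30. For PD169316 against control at day 2, array weights gave 1, and leaving out 1 library 0 to 0.

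For PD169316 at day 2 against day 1, no background correction, detection on all 18 arrays and leaving out the pair of day 2 libraries that go against their labels (chosen after seeing the data) each gave 1, array weights 6, the methods' limits 4, and leaving out 1 library 0 to 1. For day 4 against day 2 the count was 0 with the deposited intensities, 1 without the filter, 0 with only the arrays compared, 6 with array weights, and 1 to 10 with 1 library left out. For day 4 against day 1 it was 1 with the deposited intensities, 7 without background correction, 13 with only the arrays compared, 9 with array weights, 7 with the methods' limits, and 3 to 13 with 1 library left out. Day 2 against day 1 in the controls gave 29 to 31. The cause of these changes was not tested.

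With the replicate number as a block, 32 genes were called for PD169316 at day 1, 0 at day 2 and 5 for the day 1 controls against day 0. Same-numbered libraries did not deviate together at day 1, with correlations of -0.10 to 0.09. At day 2 the correlations were 0.56, -0.53 and 0.54 for replicates 1, 2 and 3. These include the 2 libraries that correlate best with the other label, so day 2 cannot decide on pairing. With 3 libraries per group such correlations cannot exclude a shared preparation. The 3 arrays per group limit what small differences could be detected.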
